A study of Mus musculus with 12 samples.

Results

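The laminin chains, the nidogens and the integrin subunits are 36 genes of the 17365 in the count table, chosen by symbol alone: every numbered integrin alpha or beta subunit with Itgav and the leukocyte subunits Itgal, Itgam and Itgae, every laminin alpha, beta or gamma chain, and Nid1 and Nid2. The choice applied no expression values, but it was made with earlier results of these data known. Of the 36, 29 passed the expression filter and were tested. The other 7, Itga11, Itgae, Itgb3, Itgb6, Itgb7, Lamc3 and Nid1, stayed at 12 counts or fewer in every library.

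RNA-seq was carried out on 12 libraries from adult mouse neural stem cell (NSC) cultures, taken from the subventricular zone of mice 6 to 8 weeks old. Of the lines used, ANS4 is of the MF1 strain and BL6 of C57BL/6, and each line gave 2 libraries per condition, so n = 4 per condition throughout. Cells in EGF/FGF received EGF and FGF2 and proliferated, cells in BMP received BMP4 alone and stand for the dormant quiescent state (d-qNSCs), and cells in BMP/FGF received BMP4 with FGF2 and stand for the primed quiescent state (p-qNSCs). Each factor was given at 10 ng/ml, for 3 days, to cells below passage 10. All 3 groups grew in medium with N2, B27 and Laminin-1 protein at 1 µg/ml, so that every culture had a laminin supplied from outside, whatever its own laminin mRNA. Each strain is represented by a single line.

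A laminin is a trimer of an alpha, a beta and a gamma chain, which assembles inside the cell and is secreted into basement membranes, where nidogens link it to collagen. Integrins are paired alpha and beta subunits at the cell surface. Itga3, Itga6 and Itga7 with Itgb1, and Itga6 with Itgb4, bind laminins. Itgav, Itga5 and Itga8 pair with beta subunits to bind RGD-containing ligands such as fibronectin, vitronectin and latent TGF-beta. In the subventricular zone, stem cells contact laminin-rich structures and blood vessels and are known for integrin-dependent adhesion to them.

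Library totals lay between 18069052 and 19451818 estimated counts, so 3 counts equal 0.154 to 0.166 CPM (counts scaled by the library total). BMP BL6 replicate 2 lay farthest from the rest of its condition, at a root mean square log2 distance of 0.321 against 0.225 to 0.296 for the other 11 libraries, and the replicates of BL6 in BMP differed most from each other (chi-square per gene 12.2, against 2.12 to 4.68 for the other replicate pairs). All 6 NSC markers listed were present, with sums of 3546 to 3939 CPM in EGF/FGF, 2983 to 3290 with BMP and 4620 to 4972 with BMP/FGF. Against EGF/FGF, 4 of them, Sox2, Sox9, Gfap and Prom1, were higher in BMP and 2, Nes and Fabp7, were lower. The summed level of 4 neuronal markers, Dcx and Tubb3 among them, was 13.1 to 17.9 CPM in EGF/FGF, 299 to 607 with BMP and 93.1 to 102 with BMP/FGF, and that of 5 oligodendrocyte markers was 25.4 to 29.8, 155 to 182 and 256 to 266 CPM. The part of these shifts in the results below was not tested, and in bulk RNA fewer cells of a type and less RNA per cell cannot be told apart.

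BMP4 in place of EGF and FGF2 went with lower mRNA of most of these genes. At an edgeR FDR (Benjamini-Hochberg adjusted p) under 0.05, 19 of 29 members were lower in BMP than in EGF/FGF, a direction called for 38.8% of all 13312 genes tested, and 9 were higher, against 40.8% of all genes. The median log2 fold change of the members was -0.74, against 0.02 over all genes, and 14 members (48.3%) passed the absolute log2 fold change of 1.5 used in the study, against 17.8% of all genes. In BMP/FGF against EGF/FGF, 16 members were lower (38.0% of all genes) and 9 higher (40.9% of all genes), with a median of -0.54 against 0.02. These comparisons share the EGF/FGF libraries.

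Adding FGF2 to BMP4 went with smaller differences, a median absolute log2 fold change of 0.44 over the members, against 1.28 in BMP and 1.14 in BMP/FGF relative to EGF/FGF. Over all genes the same medians were 0.20, 0.61 and 0.59, so the step was smaller for genes in general. In BMP/FGF against BMP, 14 of 29 were higher, a direction called for 20.1% of all genes, and 6 were lower, against 21.3%. The median was 0.29 for the members and close to 0 over all genes. Only Lama1 among the members passed a log2 fold change of 1.5 there, a size that 1.59% of all genes reached.

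**Figure D1:**
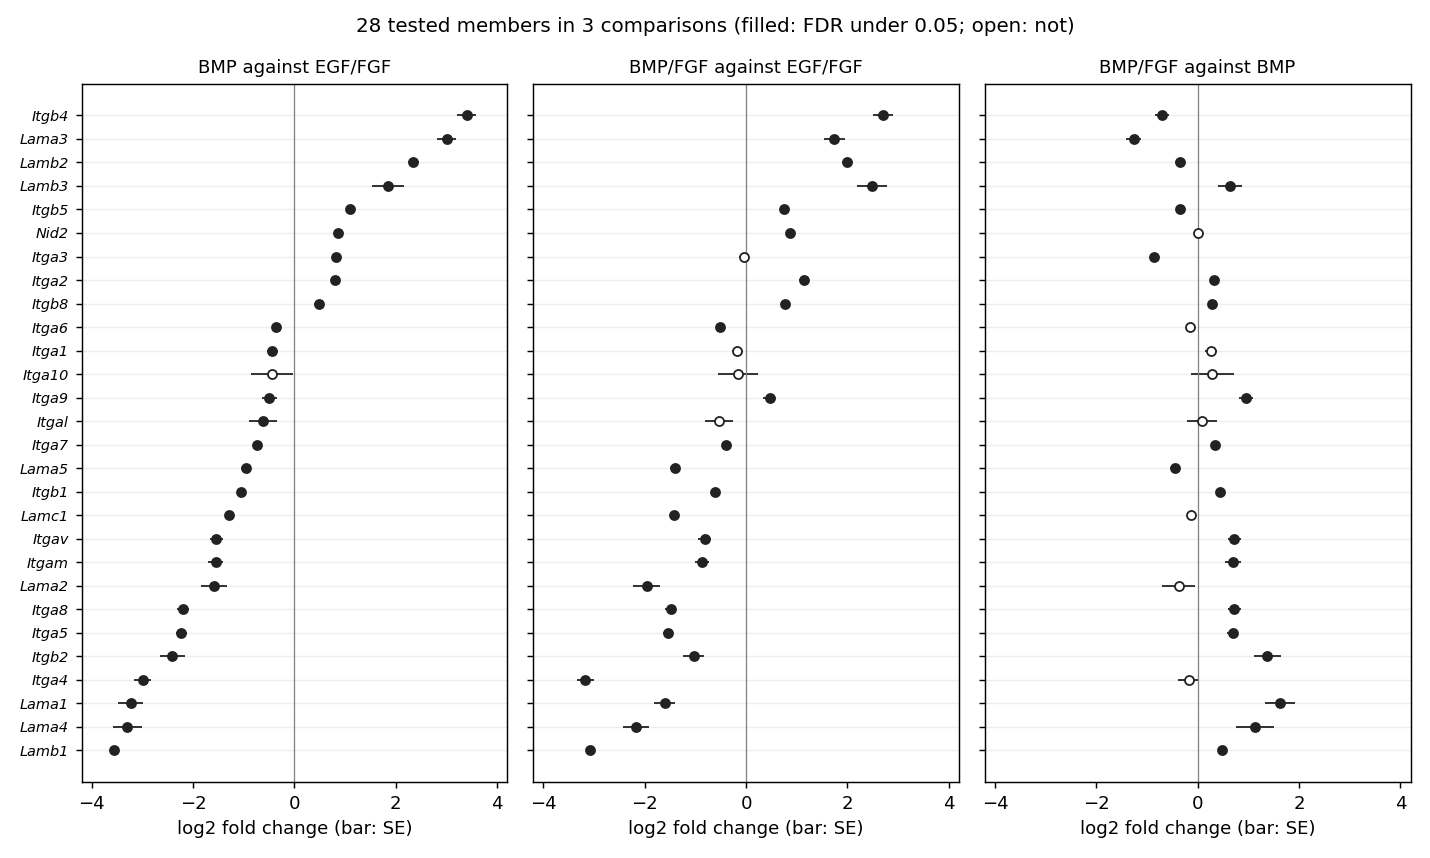
Log2 fold change of 28 tested members (x axis, bars are SE) in BMP against EGF/FGF, BMP/FGF against EGF/FGF and BMP/FGF against BMP, ordered by the first; filled points passed FDR under 0.05. Itgb4 and Lama3 stand at the upper end and Lamb1 and Lama4 at the lower end of the first panel, and the third panel is narrower, with 14 members above 0 and 6 below 0 among the filled points.

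Of the members above 50 CPM on average in any condition, the largest fall and the largest rise in BMP belonged to a pair of laminin beta chains. Lamb1 (ENSMUSG00000002900, GENCODE vM21, GRCm38 chr12:31265234-31329644, plus strand) and Lamb2 (ENSMUSG00000052911, chr9:108479736-108490530, plus strand) encode alternative beta chains that can each be built into a trimer with the gamma chain Lamc1. RefSeq promoter windows (GRCm38.p6) were found for 22 of the 36 members, and 4 are printed because their genes moved in opposite directions: Lamb1 and Itga5 fell and Lamb2 and Itgb5 rose in BMP. Each run lies before the annotated start, 5′ to 3′ on the gene's strand, and was shortened where the window reached into the GENCODE gene. Capitals mark matches, on either strand, to GGCGCC (letters found in BMP-responsive elements), GGGCGG (the GC box) or TGANTCA (the AP-1 site).
Lamb1, chr12:31265043-31265233, plus strand: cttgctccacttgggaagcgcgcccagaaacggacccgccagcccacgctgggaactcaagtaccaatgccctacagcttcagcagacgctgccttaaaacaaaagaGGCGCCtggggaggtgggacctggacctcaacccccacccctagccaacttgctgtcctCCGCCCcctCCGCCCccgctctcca
Lamb2, chr9:108479612-108479735, plus strand: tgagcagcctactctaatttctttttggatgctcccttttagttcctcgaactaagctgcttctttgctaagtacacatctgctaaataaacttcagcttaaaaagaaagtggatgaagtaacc
Itga5, chr15:103366792-103367041, minus strand: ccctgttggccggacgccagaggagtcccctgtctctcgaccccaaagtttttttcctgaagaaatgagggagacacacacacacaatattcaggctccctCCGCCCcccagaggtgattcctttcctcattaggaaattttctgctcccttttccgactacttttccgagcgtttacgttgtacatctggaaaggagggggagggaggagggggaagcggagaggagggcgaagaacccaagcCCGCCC
Itgb5, chr16:33829415-33829664, plus strand: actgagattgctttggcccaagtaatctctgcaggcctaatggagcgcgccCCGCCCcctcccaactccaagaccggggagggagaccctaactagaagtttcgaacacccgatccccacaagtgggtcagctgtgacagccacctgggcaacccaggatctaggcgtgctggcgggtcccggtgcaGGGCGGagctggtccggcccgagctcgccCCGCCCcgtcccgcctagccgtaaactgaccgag

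The Lamb1 run was 63.9% G or C and held 1 GGCGCC and 2 GGGCGG matches, the latter read on the opposite strand. The Lamb2 run was 37.9% G or C and held none of the 3 motifs, nor did the rest of its window of 250 bases. The Itga5 run was 55.6% G or C and held 2 GGGCGG matches, and the Itgb5 run was 65.2% G or C and held 3. So G or C content was higher in the gene that fell for the laminin pair and in the gene that rose for the integrin pair. The median over all windows of 250 bases was 52.4% G or C. No matches overlapped in the printed runs. Over all 32851 windows of 250 bases, 9.59% held GGCGCC, 32.7% held GGGCGG and 6.75% held TGANTCA, and of the 25 windows of members, 3, 10 and 0 did. A match describes letters only.

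Lamb1 stood at 244, 254, 281 and 277 CPM in the EGF/FGF libraries (here and below in the order ANS4 replicates 1 and 2, then BL6 replicates 1 and 2). It stood at 22.8, 22.6, 21.7 and 22.3 CPM in BMP and at 29.7, 28.2, 34.6 and 32.4 CPM in BMP/FGF. All 8 BMP4-treated libraries lay far below all 4 EGF/FGF libraries, and the BMP/FGF libraries lay above the BMP libraries without overlap. The mean fell 11.8-fold from 264 ± 17.8 (SD) to 22.3 ± 0.492 CPM in BMP, a log2 fold change of -3.56 ± 0.07 (SE, FDR = 2.86e-17). In BMP/FGF it was -3.08 ± 0.06 (SE, FDR = 1.37e-16) against EGF/FGF and 0.48 ± 0.07 (SE, FDR = 2.24e-05) against BMP, so FGF2 went with a small rise.

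Lamb2 moved the other way. Its levels were 58.7, 59.0, 48.7 and 48.2 CPM in EGF/FGF, 272, 313, 238 and 266 CPM in BMP and 186, 192, 236 and 241 CPM in BMP/FGF. Every BMP4-treated library lay above every EGF/FGF library, while BMP and BMP/FGF overlapped. Lamb2 rose 5.08-fold in BMP (log2 fold change 2.34 ± 0.11, SE, FDR = 7.94e-13) and by a log2 fold change of 2.00 ± 0.11 (SE, FDR = 6.73e-12) in BMP/FGF. The step from BMP to BMP/FGF was -0.34 ± 0.10 (SE, FDR = 0.0105). This step came to -0.63 in ANS4 and -0.08 in BL6, and without BMP/FGF ANS4 replicate 1 it was -0.26 with an FDR of 0.0504.

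Expressed per kb of the longest annotated transcript, Lamb2 made up 17.3% ± 2.55 (SD) of the summed Lamb1 and Lamb2 level in EGF/FGF, 92.5% ± 0.658 in BMP and 87.5% ± 0.77 in BMP/FGF. The libraries spanned 15.1% to 19.8%, 91.9% to 93.5% and 86.5% to 88.4%. The size of these shares depended on the length used, since many annotated Lamb2 transcripts are short. With the median transcript length, 473 bases for Lamb2 and 2478 for Lamb1, the means were 51.5%, 98.4% and 97.3%, again lowest in EGF/FGF.

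**Figure D2:**
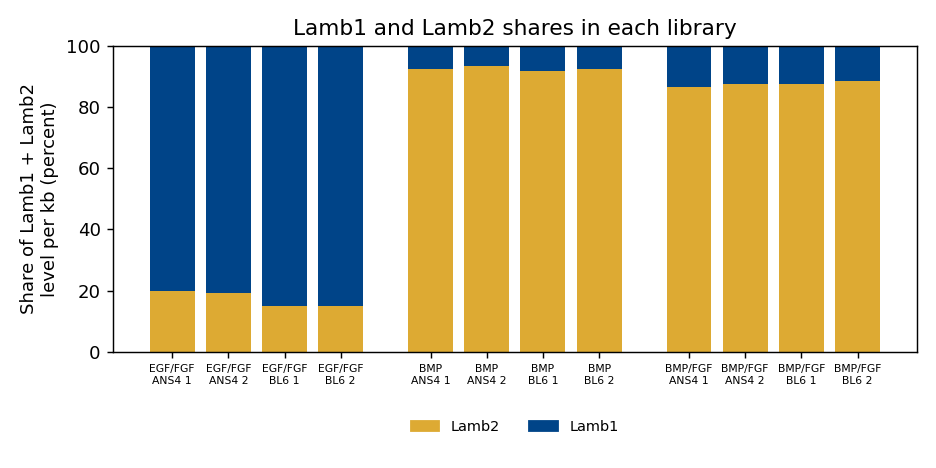
Share of Lamb2 and of Lamb1 in their summed level per kb of the longest annotated transcript (y axis, percent) in each of the 12 libraries (x axis, 1 bar per library). Lamb2 takes 15.1% to 19.8% of the EGF/FGF bars, 91.9% to 93.5% of the BMP bars and 86.5% to 88.4% of the BMP/FGF bars.

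Lamb3, the beta chain of the epithelial laminin that anchors hemidesmosomes, was rare: 0.414, 0.413, 0.624 and 0.258 CPM in EGF/FGF, 2.21, 1.6, 1.29 and 1.09 in BMP and 1.89, 2.26, 2.85 and 2.68 in BMP/FGF. Both BMP4-treated groups lay above EGF/FGF, with log2 fold changes of 1.84 ± 0.32 (SE, FDR = 3.69e-05) and 2.48 ± 0.30 (SE, FDR = 4.85e-07). Its rise from BMP to BMP/FGF, 0.65 ± 0.24 (SE, FDR = 0.0373), passed narrowly. It was 0.12 in ANS4 and 1.21 in BL6. It missed the threshold when any of BMP ANS4 replicate 2, BMP/FGF ANS4 replicate 2 or the 4 BL6 libraries of these conditions was left out (values 0.49 to 0.69, FDR 0.0505 to 0.131), and under DESeq2 (FDR 0.068).

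The gamma chain Lamc1, shared by most laminins of the brain, ranked high among the members per kb of transcript, as given further on. It stood at 626, 658, 707 and 658 CPM in EGF/FGF, 287, 278, 269 and 253 in BMP and 223, 223, 279.5 and 273 in BMP/FGF. Every EGF/FGF library lay above every BMP4-treated library, and the log2 fold changes of Lamc1 were -1.28 ± 0.07 (SE, FDR = 2.51e-11) in BMP and -1.41 ± 0.07 (SE, FDR = 7.39e-12) in BMP/FGF. BMP and BMP/FGF overlapped, with a difference of -0.13 ± 0.07 (SE, FDR = 0.177). Lamc3 had at most 1 count in any library.

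Among the alpha chains, which carry the main integrin-binding end of a laminin, Lama5 had by far the highest level per kb. It stood at 334, 362, 344 and 368 CPM in EGF/FGF, 168, 199.7, 163 and 194 in BMP and 113, 112, 159.7 and 156 in BMP/FGF. Lama5 fell with log2 fold changes of -0.96 ± 0.10 (SE, FDR = 5.15e-08) and -1.40 ± 0.10 (SE, FDR = 3.78e-10), and every BMP4-treated library lay below every EGF/FGF library. It was lower again in BMP/FGF than in BMP, at -0.44 ± 0.10 (SE, FDR = 0.00167). The lines differed in this last step, with -0.71 in ANS4 and -0.18 in BL6, where it did not pass alone (FDR 0.116). Its share of the 5 alpha chains per kb stayed at 95.8% ± 0.55, 95.6% ± 0.57 and 95.4% ± 1.00 in EGF/FGF, BMP and BMP/FGF.

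The other alpha chains were at a few CPM. Lama1, the alpha chain of the embryonic laminin, was at 4.24, 3.98, 3.8 and 3.72 CPM in EGF/FGF, 0.497, 0.775, 0.207 and 0.208 in BMP and 1.4, 1.24, 1.23 and 1.28 in BMP/FGF. The 3 groups did not overlap and BMP/FGF lay between the others. Lama1 fell in both, with log2 fold changes of -3.23 ± 0.25 (SE, FDR = 1.39e-09) in BMP and -1.61 ± 0.21 (SE, FDR = 1.2e-06) in BMP/FGF, and was higher with FGF2 than without it (1.62 ± 0.30, SE, FDR = 0.000336). In BMP these levels rest on 4 to 14 counts per library.

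Lama4, a chain of vessel basement membranes, was at 3.47, 3.00, 5.62 and 3.98 CPM in EGF/FGF, 0.386, 0.277, 0.622 and 0.313 in BMP and 1.02, 1.13, 0.782 and 0.558 in BMP/FGF. It fell with log2 fold changes of -3.30 ± 0.29 (SE, FDR = 7.27e-09) and -2.17 ± 0.25 (SE, FDR = 3.51e-07), with no overlap between EGF/FGF and either BMP4-treated group. Its difference of 1.13 ± 0.37 (SE, FDR = 0.0205) between BMP/FGF and BMP rests on 5 to 21 counts per library and missed the threshold when BMP ANS4 replicate 2, BMP BL6 replicate 2 or either BMP/FGF ANS4 replicate was left out (0.93 to 1.03, FDR 0.0522 to 0.0717). On the deposited rlog values it was 0.37 with an FDR of 0.109. The line values were 1.68 in ANS4 and 0.51 in BL6. Of 7 endothelial markers, 5 were in the table, with a sum of 39.7 to 48.1 CPM in EGF/FGF, 9.54 to 13.5 with BMP and 19.3 to 23.8 with BMP/FGF, most of it Flt1 (means 39.7, 4.81 and 14.9 CPM). Flt1 was the 1 marker of the 3 tested that was lower in BMP, and 2 were higher, Vwf (means 0.867, 3.88 and 4.73 CPM) and Kdr (1.71, 3.16 and 1.69 CPM). Their part in the values of Lama4 was not tested.

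Lama2, the chain of muscle and peripheral nerve laminin, was at 2.02, 2.17, 1.51 and 2.07 CPM in EGF/FGF, 0.497, 0.498, 0.725 and 0.834 in BMP and 0.485, 0.593, 0.615 and 0.279 in BMP/FGF. Lama2 fell in both BMP4-treated groups, with log2 fold changes of -1.59 ± 0.26 (SE, FDR = 1.8e-05) and -1.96 ± 0.27 (SE, FDR = 2.96e-06). Lama3, the epithelial alpha chain, was the exception among the alpha chains: it was at 0.621, 0.672, 0.884 and 0.671 CPM in EGF/FGF, 5.19, 6.53, 6.01 and 5.26 in BMP and 2.05, 2.15, 2.79 and 2.62 in BMP/FGF. Its 3 groups did not overlap, BMP being highest. Lama3 rose 8.02-fold in BMP (log2 fold change 3.00 ± 0.18, SE, FDR = 4.58e-11) and 3.35-fold in BMP/FGF (1.74 ± 0.20, SE, FDR = 3.96e-07), and was lower with FGF2 than without it (-1.26 ± 0.15, SE, FDR = 4.42e-06).

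Of the nidogens, Nid2 was measured at 32.9 to 38.5 CPM with EGF/FGF, 60.3 to 71.6 with BMP and 58.8 to 73.6 with BMP/FGF. It rose with log2 fold changes of 0.86 ± 0.08 (SE, FDR = 9.58e-09) and 0.87 ± 0.08 (SE, FDR = 9.27e-09), while the BMP4-treated groups overlapped and differed by 0.01 ± 0.08 (SE, FDR = 0.952). Of the Nid2 exon bases, 8.45% are shared with Rtraf on the opposite strand. Nid1 had at most 6, 12 and 10 counts under EGF/FGF, BMP and BMP/FGF and was not tested.

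**Figure D3:**
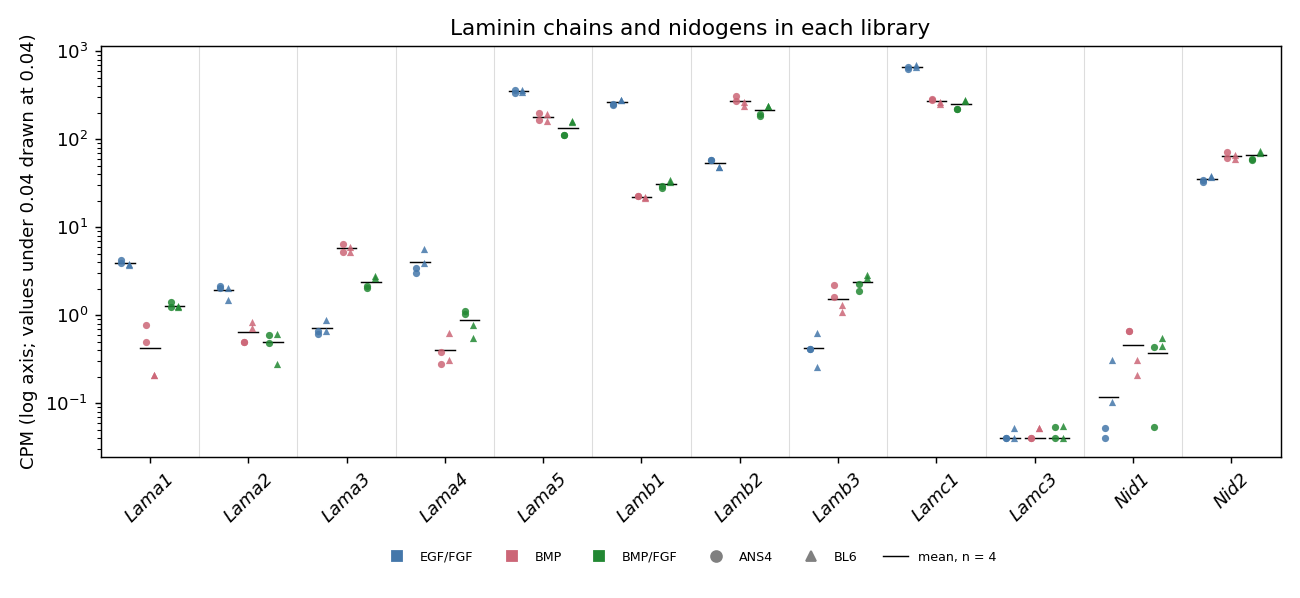
CPM of 10 laminin chains and 2 nidogens in each library (log y axis, values under 0.04 drawn at 0.04), with circles for ANS4, triangles for BL6 and a line for the mean of 4. Lamb1 drops and Lamb2 climbs from EGF/FGF to both BMP4-treated groups, and Lamc1 and Lama5 stay above 100 CPM in all 3 conditions.

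Itgb1, the beta subunit that pairs with most of the alpha subunits listed here, had the highest level of all members per kb of the longest transcript in every condition. With the median transcript length it came after Lamb2 in BMP. It stood at 1398, 1410.0, 1356 and 1348 CPM in EGF/FGF, 706, 686, 682 and 579.6 in BMP and 895, 916, 905 and 903 in BMP/FGF. The 3 groups did not overlap and BMP/FGF lay between. Itgb1 fell 2.08-fold in BMP (log2 fold change -1.05 ± 0.06, SE, FDR = 3.19e-11) and 1.52-fold in BMP/FGF (-0.61 ± 0.06, SE, FDR = 6.48e-08), and was higher with FGF2 than without it (0.45 ± 0.06, SE, FDR = 2.18e-05).

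Itgb5, Itgb4 and Itgb8 rose where Itgb1 fell. Itgb5, which pairs with Itgav to bind vitronectin, was at 54.2, 55.2, 54.4 and 56.8 CPM in EGF/FGF, 110.4, 128, 110.2 and 126 in BMP and 87.5, 88.4, 99.0 and 97.3 in BMP/FGF. The 3 groups did not overlap, and the order was the reverse of that of Itgb1. Itgb5 rose by 1.10 ± 0.07 (SE, FDR = 3.29e-11) in BMP and 0.75 ± 0.07 (SE, FDR = 7.34e-09) in BMP/FGF on the log2 scale, and its level under BMP/FGF was below that under BMP (-0.35 ± 0.06, SE, FDR = 0.000323).

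Itgb4, whose only known partner is Itga6, was low in EGF/FGF, at 0.569, 1.6, 1.51 and 1.24 CPM. It reached 10.3, 13.3, 13.4 and 15.3 CPM in BMP and 8.13, 7.54, 7.49 and 8.82 CPM in BMP/FGF. The groups did not overlap, and Itgb4 rose 10.6-fold in BMP (log2 fold change 3.40 ± 0.18, SE, FDR = 9.91e-12) and 6.49-fold in BMP/FGF (2.70 ± 0.19, SE, FDR = 5.01e-10), the largest rise of the 29 tested members in both. FGF2 went with a lower level (-0.70 ± 0.14, SE, FDR = 0.000786). Reads of Itgb4 could include some of B230344G16Rik, which shares 7.66% of its exon bases on the opposite strand.

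Itgb8, the subunit that with Itgav activates latent TGF-beta, was at 193 to 225 CPM with EGF/FGF, 229.7 to 321 with BMP and 329 to 386 with BMP/FGF. It rose by 0.49 ± 0.09 (SE, FDR = 0.000102) in BMP and by 0.78 ± 0.09 (SE, FDR = 4.68e-07) in BMP/FGF on the log2 scale. Its difference of 0.29 ± 0.09 (SE, FDR = 0.0172) between BMP/FGF and BMP depended on BMP BL6 replicate 2, whose 229.7 CPM lay below the 314 to 321 CPM of the other BMP libraries: without that library it was 0.18 with an FDR of 0.0505. Leaving out BMP/FGF BL6 replicate 1 or 2 gave 0.26 and 0.25, with FDRs of 0.0536 and 0.0609. In the lines taken separately, the step was 0.10 in ANS4 (FDR 0.169) and 0.48 in BL6 (FDR 0.00508).

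As a share of the 8 beta subunits per kb of the longest transcript, Itgb1 took 89.3% ± 0.268 in EGF/FGF, 70.2% ± 1.28 in BMP and 76.4% ± 1.2 in BMP/FGF. Itgb8 took 6.21% ± 0.293, 14.2% ± 1.21 and 13.9% ± 0.763, and Itgb5 took 4.16% ± 0.155, 14.7% ± 2.01 and 9.13% ± 0.453. With the median transcript length, Itgb1 took 83.9%, 57.4% and 66.9%, Itgb8 6.32%, 12.6% and 13.1%, and Itgb5 9.63%, 29.5% and 19.7%. The share of Itgb1 was highest in EGF/FGF with either length, while Itgb5 stood below Itgb8 in EGF/FGF and BMP/FGF with the longest transcript and above it with the median. Itgb3, Itgb6 and Itgb7 had at most 10, 2 and 8 counts in any library.

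The 3 alpha subunits that bind RGD ligands were all lower in both BMP4-treated groups than in EGF/FGF, and all were higher where FGF2 had been added to BMP4. Itgav stood at 593, 608, 528 and 584 CPM in EGF/FGF, 235, 226, 193 and 144 in BMP and 272, 283, 378 and 379.9 in BMP/FGF. The 3 groups did not overlap. The log2 fold changes of Itgav were -1.54 ± 0.13 (SE, FDR = 6.85e-09) in BMP and -0.81 ± 0.13 (SE, FDR = 1.98e-05) in BMP/FGF. From BMP to BMP/FGF it rose by 0.72 ± 0.13 (SE, FDR = 0.000343), with 0.27 in ANS4 and 1.17 in BL6. In BMP against EGF/FGF, Itgav thus moved against its partners Itgb5 and Itgb8, which were higher, while Itgb1 fell as Itgav did. From BMP to BMP/FGF, Itgb5 was lower, and Itgb8 was higher, as Itgav was, with the line values and dependence on single libraries given above.

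Itga5, the alpha subunit of the classical fibronectin receptor, stood at 41.2, 44.2, 34.3 and 36.4 CPM in EGF/FGF, 9.05, 8.41, 7.36 and 8.39 in BMP and 11.9, 12.3, 15.1 and 14.3 in BMP/FGF. Its groups did not overlap. It fell 4.7-fold in BMP (log2 fold change -2.23 ± 0.11, SE, FDR = 1.47e-12) and 2.9-fold in BMP/FGF (-1.54 ± 0.10, SE, FDR = 1.35e-10), and rose by 0.69 ± 0.11 (SE, FDR = 9.99e-05) on the log2 scale from BMP to BMP/FGF. Itga8, a receptor for nephronectin and other RGD proteins, stood at 17.9, 16.1, 23.1 and 25.2 CPM in EGF/FGF, 4.36, 4.59, 4.71 and 4.01 in BMP and 6.68, 6.95, 7.21 and 8.32 in BMP/FGF. Here too BMP was lowest and BMP/FGF intermediate, without overlap. The log2 fold changes of Itga8 were -2.21 ± 0.12 (SE, FDR = 7.13e-12) in BMP and -1.49 ± 0.11 (SE, FDR = 7.73e-10) in BMP/FGF against EGF/FGF, and 0.72 ± 0.13 (SE, FDR = 0.000241) in BMP/FGF against BMP.

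Of the laminin-binding alpha subunits, Itga6 and Itga7 fell in both BMP4-treated groups and Itga3 rose in BMP. Itga6 was at 161 to 166 CPM with EGF/FGF, 114 to 137 with BMP and 109 to 118 with BMP/FGF, with log2 fold changes of -0.36 ± 0.06 (SE, FDR = 3.04e-05) and -0.51 ± 0.06 (SE, FDR = 5.27e-07). Itga7 was at 219.5 to 295, 132 to 171 and 185 to 196 CPM in the same order, with -0.74 ± 0.08 (SE, FDR = 7.01e-08) and -0.39 ± 0.08 (SE, FDR = 0.000138), and FGF2 went with a higher level (0.35 ± 0.08, SE, FDR = 0.00155). For Itga6 the step from BMP to BMP/FGF did not pass (-0.15 ± 0.06, SE, FDR = 0.06). It came to -0.27 in ANS4 and -0.03 in BL6. Itga3 was at 16.1 to 20.8 CPM with EGF/FGF, 29.9 to 35.0 with BMP and 15.9 to 20.2 with BMP/FGF. Itga3 rose by 0.82 ± 0.08 (SE, FDR = 2.11e-08) on the log2 scale in BMP and was lower with FGF2 than without it (-0.87 ± 0.08, SE, FDR = 1.69e-07). Its BMP/FGF and EGF/FGF libraries overlapped (-0.05 ± 0.08, SE, FDR = 0.586).

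Itga1 and Itga2, the collagen-binding subunits, lie 21.0 kb apart on chromosome 13 and moved in opposite directions in BMP. Itga2 was at 27.5, 26.9, 26.8 and 27.2 CPM in EGF/FGF, 51.5, 53.6, 47.3 and 37.8 in BMP and 58.0, 54.0, 63.9 and 62.1 in BMP/FGF. The groups did not overlap, and Itga2 rose by 0.81 ± 0.09 (SE, FDR = 2.52e-07) and 1.14 ± 0.09 (SE, FDR = 2.55e-09) on the log2 scale against EGF/FGF and by 0.33 ± 0.09 (SE, FDR = 0.00703) from BMP to BMP/FGF. In the lines taken separately, that last step was 0.09 in ANS4 and 0.57 in BL6. Itga1 was at 29.2 to 32.7 CPM with EGF/FGF, 17.0 to 25.8 with BMP and 24.2 to 30.8 with BMP/FGF, and fell in BMP (-0.43 ± 0.11, SE, FDR = 0.00194). Its values of -0.17 ± 0.11 (SE, FDR = 0.175) in BMP/FGF against EGF/FGF and 0.27 ± 0.11 (SE, FDR = 0.0718) in BMP/FGF against BMP did not pass. Itga10 was at 3 to 15 counts per library and passed in no comparison, and 33.5% of its exon bases are shared with Gm42957. Itga11 had 2 to 10 counts in EGF/FGF and at most 4 elsewhere.

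Itga4, a receptor for fibronectin and Vcam1, showed the deepest fall of the tested integrin alpha subunits. It stood at 21.8, 16.9, 26.7 and 31.3 CPM in EGF/FGF, 2.76, 2.16, 3.94 and 3.18 in BMP and 2.64, 3.02, 2.96 and 1.9 in BMP/FGF. Both BMP4-treated groups lay below EGF/FGF and overlapped with each other. Itga4 fell 7.97-fold in BMP (log2 fold change -3.00 ± 0.16, SE, FDR = 9.23e-12) and 9.01-fold in BMP/FGF (-3.17 ± 0.17, SE, FDR = 6.24e-12), with -0.18 ± 0.21 (SE, FDR = 0.525) between them. Its relative Itga9, a receptor for tenascin-C and osteopontin, was at 4.79 to 7.66 CPM with EGF/FGF, 4.03 to 4.74 with BMP and 8.03 to 9.11 with BMP/FGF. Itga9 fell in BMP (-0.49 ± 0.14, SE, FDR = 0.00414) and rose in BMP/FGF (0.47 ± 0.13, SE, FDR = 0.00356), and the step from BMP to BMP/FGF was 0.96 ± 0.14 (SE, FDR = 3.1e-05). The fall came to -0.20 in BL6 (FDR 0.303) and the rise to 0.20 in ANS4 (FDR 0.203), so neither passed in both lines alone. Exon bases shared with a gene on the opposite strand made up 8.04% of Itga4, 5.90% of Itgav, 5.05% of Itga8, 3.86% of Lama2 and 1.83% of Lama3, and whether the counting used strand is not given in the sources used here.

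**Figure D4:**
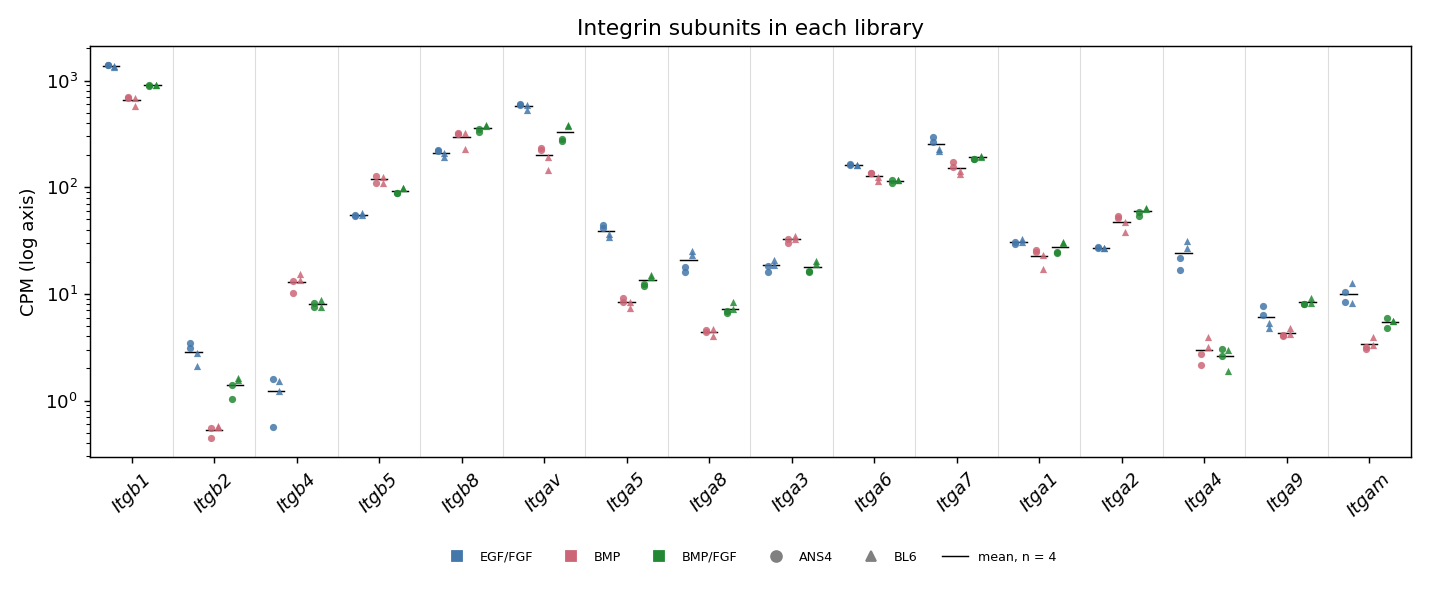
CPM of 16 integrin subunits in each library (log y axis), with circles for ANS4, triangles for BL6 and a line for the mean of 4. Itgb1, Itgav, Itga5 and Itga8 are lowest in BMP with BMP/FGF between, and Itgb4 and Itgb5 show the reverse order.

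The leukocyte subunits were low. Itgb2, the beta subunit of white blood cells and microglia, was at 3.47, 3.1, 2.81 and 2.12 CPM in EGF/FGF, 0.552, 0.443, 0.57 and 0.573 in BMP and 1.4, 1.02, 1.62 and 1.56 in BMP/FGF. The groups did not overlap, and the log2 fold changes were -2.41 ± 0.24 (SE, FDR = 4.71e-08), -1.03 ± 0.20 (SE, FDR = 0.000174) and, for BMP/FGF against BMP, 1.38 ± 0.27 (SE, FDR = 0.000612). Itgam, its partner in complement receptor 3, was at 10.3, 8.32, 12.8 and 8.16 CPM, 3.04, 3.15, 3.94 and 3.33 CPM and 4.74, 5.93, 5.53 and 5.53 CPM, again without overlap, with -1.55 ± 0.15 (SE, FDR = 2.74e-08), -0.86 ± 0.14 (SE, FDR = 2.23e-05) and 0.69 ± 0.16 (SE, FDR = 0.00224). Reads of Itgam cannot be told apart securely from Gm49368, which shares 68.7% of its exon bases on the same strand.

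Itgal was at 6 to 20 counts per library. Its difference of -0.61 ± 0.27 (SE, FDR = 0.0489) in BMP was lost with any library left out other than EGF/FGF ANS4 replicate 2 or BMP ANS4 replicate 2 (FDR 0.0524 to 0.124) and under DESeq2 (FDR 0.141). Itgae had 0 to 11 counts. Of 12 microglial markers, 5 were in the table and their sum was 4.70 to 6.35 CPM in EGF/FGF, 2.66 to 4.22 with BMP and 3.85 to 6.57 with BMP/FGF. Csf1r, Tmem119 and Cx3cr1 reached at most 2, 4 and 10 counts in any library. Most of the sum came from Cd68, whose means of 4.12, 1.15 and 2.43 CPM in EGF/FGF, BMP and BMP/FGF had the same order as Itgb2 and Itgam, and from P2ry12, whose means of 1.37, 2.15 and 2.41 CPM did not. The part of microglial RNA in the values of Itgb2 and Itgam was not tested.

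Levels of different genes were compared as CPM per kb of the longest annotated transcript. In EGF/FGF the order was Itgb1 (361 ± 7.96, SD), Lamc1 (86.9 ± 4.37), Itgav (82.0 ± 4.92), Itga7 (62.7 ± 8.77), Lamb1 (45.7 ± 3.07), Itga6 (37.8 ± 0.523), Lama5 (30.9 ± 1.37) and Itgb8 (25.1 ± 1.68). Lamc1 and Itgav overlapped in their libraries, and the other neighbours in that order did not. In BMP, Itgb1 (174 ± 14.9) was followed by Lamb2 (48.4 ± 5.53), Itga7 (37.4 ± 4.26), Itgb5 (36.1 ± 2.89), Lamc1 (35.6 ± 1.92) and Itgb8 (35.3 ± 5.31), of which the last 4 lay within each other's spread and the highest Itga7 library reached the lowest of Lamb2. In BMP/FGF the order ran Itgb1 (237 ± 2.34), Itga7 (47.3 ± 1.43), Itgav (46.5 ± 8.33), Itgb8 (43.0 ± 3.1) and Lamb2 (38.0 ± 5.14), and all but Itgb1 overlapped with a neighbour. Lamb1 went from place 5 in EGF/FGF to place 13 in BMP and 12 in BMP/FGF, and Lamb2 from 10 to 2 and 5. With the median transcript length, Lamb1 held places 6, 13 and 13 and Lamb2 places 5, 1 and 2, so Lamb2 stood above Lamb1 in all 3 conditions. With that length, 6 of the 8 highest genes in EGF/FGF were the same.

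The response to FGF2 under BMP4 differed between the lines for 7 of 29 members (line by condition interaction, edgeR FDR under 0.05), a call made for 13.5% of all genes. In all 7 the change was more positive in BL6 than in ANS4, a direction shared by 888 of the 1801 genes called. For Itgav the difference, BL6 minus ANS4, was 0.90 ± 0.13 (SE, FDR = 0.000394) on the log2 scale. It was 0.55 ± 0.10 for Lamb2 (FDR = 0.00171), 0.53 ± 0.12 for Lama5 (FDR = 0.00851) and 0.42 ± 0.09 for Lamc1 (FDR = 0.00412). These 4 passed whichever of the 12 libraries was left out. In Lamc1 the change was -0.34 in ANS4 and 0.08 in BL6.

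Itga1 (0.64 ± 0.16, FDR = 0.0131), Itga2 (0.47 ± 0.13, FDR = 0.0187) and Itga7 (0.33 ± 0.10, FDR = 0.0323) also passed. These 3 were less stable. Without BMP/FGF BL6 replicate 1 none of them passed and the count was 4, and without BMP BL6 replicate 1 it was 10. Itga1 also failed without BMP/FGF ANS4 replicate 1 (0.61, FDR = 0.0612). Itga2 also failed without BMP ANS4 replicate 2, BMP/FGF ANS4 replicate 2 or BMP/FGF BL6 replicate 2 (0.42 to 0.48, FDR 0.062 to 0.0868). Itga7 also failed without BMP ANS4 replicate 2, either BMP/FGF ANS4 replicate or BMP/FGF BL6 replicate 2 (0.26 to 0.33, FDR 0.0939 to 0.141), with library size alone as the scaling (0.25, FDR = 0.0902) and on the rlog values (0.27, FDR = 0.126). In BMP against EGF/FGF, 0 of 29 members differed between lines by edgeR, where 9.02% of all genes did. The lowest member FDR was 0.0874, 8 members had an unadjusted p under 0.05, and DESeq2 and limma also called 0. Without BMP BL6 replicate 1, which leaves BMP BL6 replicate 2 as the only BL6 library in BMP, 6 were called: Itga1, Itga2, Itga8, Itgav, Itgb8 and Lamc1.

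**Figure D5:**
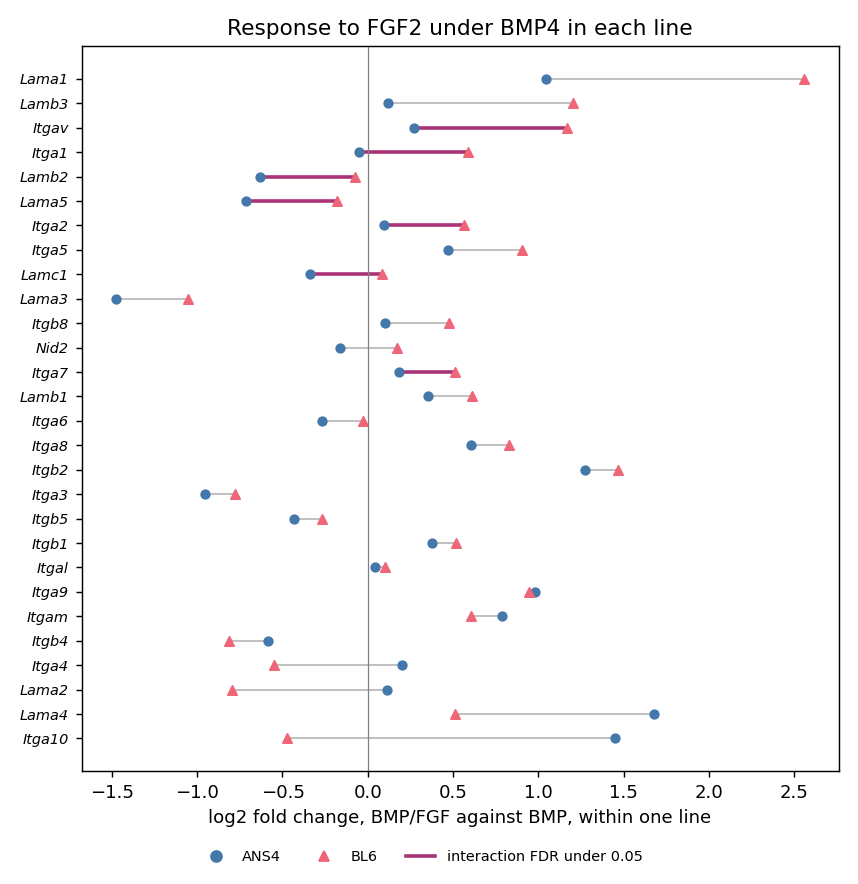
Log2 fold change of BMP/FGF against BMP within ANS4 (circles) and within BL6 (triangles) for 28 tested members, with a line joining the lines' values. The 7 thick lines mark members whose interaction passed FDR under 0.05, and in each of them the BL6 value lies to the right of the ANS4 value.

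Cytoplasmic adhesion proteins that couple integrins to actin were examined from a list of 36, of which 33 were tested. In BMP against EGF/FGF, 17 were higher, 12 lower and 4 not called, with a median of 0.14 against 0.02 over all genes. The higher share was 51.5%, against 40.8% of all genes, and the lower 36.4%, near the 38.8% of all genes. Ilk, the kinase-like scaffold bound to beta subunits, fell from 374 ± 13.4 CPM (SD) to 208 ± 11.1 CPM, a log2 fold change of -0.85 ± 0.06 (SE, FDR = 1.77e-10), and Vasp, an actin regulator, from 121 ± 5.32 to 58.7 ± 2.73 CPM (-1.05 ± 0.06, SE, FDR = 2.24e-11). Nedd9, a docking protein, rose from 35.67 ± 1.268 to 90.1 ± 2.85 CPM (1.34 ± 0.06, SE, FDR = 1.39e-12). Lims2, which binds Ilk, was at 0.168 ± 0.136 CPM in EGF/FGF, about the level of 3 counts, and at 10.5 ± 4.75 CPM in BMP. In BMP/FGF against BMP, 8 were higher (24.2%, against 20.1% of all genes), 10 lower (30.3%, against 21.3%) and 15 not called. Ilk (0.39 ± 0.06, SE, FDR = 3.64e-05) and Fermt2 (0.48 ± 0.05, SE, FDR = 1.3e-06), a kindlin that activates integrins, were higher, and Tns2 (-0.48 ± 0.12, SE, FDR = 0.00355) and Lims2 (-0.53 ± 0.21, SE, FDR = 0.0493) were lower.

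Of 30 other basement membrane proteins and integrin ligands, 28 were tested. In BMP, 11 were higher (39.3%), 12 lower (42.9%) and 5 not called, with a median of -0.14. Both shares were near those over all genes, 40.8% and 38.8%. Tnc, tenascin-C, fell from 1699 ± 76.8 to 12.6 ± 0.72 CPM (-7.08 ± 0.08, SE, FDR = 2.12e-20) and Spp1, osteopontin, from 94.4 ± 24.0 to 2.19 ± 0.38 CPM (-5.41 ± 0.19, SE, FDR = 2.05e-14). Tnr, tenascin-R, rose from 39.2 ± 3.27 to 161 ± 54.0 CPM (2.00 ± 0.12, SE, FDR = 2.74e-11), and Bcam, a receptor for Lama5, from 11.1 ± 1.22 to 24.1 ± 2.82 CPM (1.12 ± 0.09, SE, FDR = 4.6e-09). In BMP/FGF against BMP, 16 were higher (57.1%, against 20.1% of all genes), 5 lower (17.9%, against 21.3%) and 7 not called. Fbln2 (1.35 ± 0.12, SE, FDR = 1.6e-07) and the syndecan Sdc3 (0.72 ± 0.09, SE, FDR = 7.27e-06) were higher, and Fbln1 (-0.84 ± 0.17, SE, FDR = 0.000669) and fibronectin, Fn1 (-0.37 ± 0.09, SE, FDR = 0.00424), were lower.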

How the data were processed

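RNA-seq was measured in 12 libraries (BGISEQ-500RS, low input). The authors trimmed reads with Trim Galore 0.5.0, ran kallisto 0.44.0 on the mm10 transcriptome, summarised its output per gene with tximport and deposited estimated counts as whole numbers, without normalization. A second table deposited by the authors holds log2 values from DESeq2's regularized logarithm (rlog). Reads of shared exons were divided by kallisto's model, so members that overlap other genes are uncertain.

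Groups came from the labels. Genes were kept by filterByExpr (13312 of 17365), scaled by TMM and fitted in edgeR 4.0.16 (R 4.3.3, glmQLFit and glmQLFTest, two-sided) with condition and line as terms on all 12 libraries, and the Benjamini-Hochberg adjustment (FDR) ran over all tested genes. CPM used library totals multiplied by the TMM factors. The interaction used 6 line and condition means. Gene positions and lengths came from GENCODE vM21. Alternatives used limma 3.58.1 on rlog values and DESeq2 1.42.0. The members and lists were chosen with earlier results of these data known. Of the tested members, 1 is counted but not reported here. Every other member is named, with CPM in every library where FDR was under 0.05 and the absolute log2 fold change above 1 in any comparison. From the lists, the 2 largest rises and falls with a mean of at least 5 CPM are named. The authors count 2 biological replicates for the RNA-seq. What separated replicates of a line is not given in the sources used here. The p-values therefore measure the spread between libraries, part of which may be technical. Replicates of a line and condition differed by more than sampling noise. Replicate numbers were not used to pair libraries in the main fit. Whether same-numbered cultures were handled together is not given. The scripts were tested on simulated data.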

Additional observations from a re-analysis of the deposited data

Results flagged for a closer look

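Within groups of 4 libraries, 3 of 87 member groups held a library set apart by Dixon's criterion, and chance flags about 1 in 20 groups. Itga9 in BMP/FGF BL6 replicate 1 was at 9.11 CPM, against 8.03 to 8.15 in the others. Itgb2 in BMP ANS4 replicate 2 was at 0.443 CPM, against 0.552 to 0.573. Itgb8 in BMP BL6 replicate 2 was at 229.7 CPM, against 314 to 321.

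The change from BMP to BMP/FGF differed between the lines for 7 members by the interaction test. The BL6 minus ANS4 differences on the log2 scale were 0.90 for Itgav, 0.64 for Itga1, 0.55 for Lamb2, 0.53 for Lama5, 0.47 for Itga2, 0.42 for Lamc1 and 0.33 for Itga7.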

How the results depend on the processing

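Of the alternative values computed for single called members, 1682 kept their direction and side of the threshold, 57 kept their direction but missed the threshold, and none turned direction. The counts of members higher or lower stayed between 9 and 11 and between 17 and 19 (BMP against EGF/FGF), 8 and 10 and 16 and 17 (BMP/FGF against EGF/FGF), and 11 and 15 and 4 and 8 (BMP/FGF against BMP). With 1 library left out, members whose response differed between lines numbered 0 to 6 for BMP against EGF/FGF and 4 to 10 for BMP/FGF against BMP. The Lamb2 share of Lamb1 plus Lamb2 with the median transcript length, an alternative chosen after seeing the data and also applied to the integrin beta shares, was 51.5% in EGF/FGF, 98.4% in BMP and 97.3% in BMP/FGF. Same-numbered replicates did not deviate together (correlations -0.0711 to 0.0529). With a replicate block, 9 members were higher and 18 lower in BMP than in EGF/FGF, 9 and 16 in BMP/FGF than in EGF/FGF, and 13 and 6 in BMP/FGF than in BMP, and the calls of Itgal (FDR 0.065) and Lamb3 (FDR 0.054) were lost. Depth limits genes near 3 counts, such as Lamc3 and Itgb6.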
